A study of Mus musculus with 6 samples.

Results

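Transcripts of chromatin-modifying enzymes, remodelling factors and their close partners were examined after a macroH2A histone variant had been targeted in B16-F1, a melanoma line of the mouse. The genes were selected by name as a list of 43, and 42 of them had a probe set with 1 gene symbol on the array, out of 18193 genes so named. Suv39h1 was not analysed here. Each gene was represented by its brightest probe set. They were placed in 9 classes, namely 9 Polycomb proteins, 3 HP1 proteins, 3 measured methyltransferases of histone H3, 4 demethylases, 6 deacetylases, 3 acetyltransferases, 6 proteins of DNA methylation, 7 remodellers and the insulator protein Ctcf.

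One group expressed a lentiviral short hairpin RNA (shRNA) against macroH2A1, one an shRNA against macroH2A2, and one a control shRNA directed at GFP. All 3 were stable lines of the C57BL/6J background in the same serum-containing medium, so the control cells also carried a lentivirus and a hairpin. Each group had 2 arrays labelled as biological replicates, 6 in all, and nothing says that they came from separate infections, so p-values measure only the spread between these samples. The labels do not give the number of hairpins or clones per target, and effects of a hairpin or clone and of its target cannot be told apart.

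MacroH2A replaces H2A in a share of nucleosomes and carries a large additional macro domain. It is concentrated on silent chromatin such as the inactive X chromosome. Some of the proteins described here write, remove or read the marks of such chromatin. Polycomb complexes methylate and ubiquitinate histones at silenced developmental genes. HP1 proteins bind methylated H3 in heterochromatin, DNA methyltransferases and TET enzymes set and oxidise cytosine methylation, and remodellers move or exchange nucleosomes with ATP. ATRX, a remodeller of the same family, has been described as a binding partner of macroH2A.

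The signals are the authors' deposited MAS5 values in linear units, with the same trimmed mean on every array. Array medians lay between 15.1 and 24.6. On the log2 scale, r over all probe sets was 0.978 to 0.990 between arrays. Melanocyte markers were bright, with 12 of 12 above the filter on low signal and Dct the brightest at a mean of 8181. Their summed signal ran from 49828 to 57277 in macroH2A1 shRNA cells and 44869 to 51486 in macroH2A2 shRNA cells, against 45814 to 47110 in control cells. Of 29 measured leukocyte, fibroblast, endothelial and keratinocyte markers, 9 were above the filter, and the brightest, Postn, averaged 81.7. Macroh2a1 itself read 444.2 and 319.1 in macroH2A1 shRNA cells, against 1212.7 and 1262.4 in control cells. Macroh2a2 was below the filter, with 11.9 and 8.3 in macroH2A2 shRNA cells against 6.1 and 7.5 in control cells, so the arrays do not check the second label.

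No chromatin regulator of the list passed the test in any comparison of the 3 lines. Every one of the 42 had a mean signal above the filter on low signal, 10.4 units. The filter ranks brightness and does not show that a gene is expressed. All 42 were tested in 1 limma fit over 27025 probe sets on log2(signal + 16), with p-values adjusted by Benjamini-Hochberg over all probe sets. The count past an adjusted p of 0.05 was 0 of 42 for macroH2A1 shRNA against control, 0 for macroH2A2 shRNA against control and 0 for macroH2A2 against macroH2A1 shRNA. Of all probe sets 0% passed in each of these comparisons. Macroh2a1, the targeted gene, did not pass either. Its log2 fold change for macroH2A1 shRNA against control was -1.67 (SE 0.17), with an adjusted limma p of 0.123. A count of 0 in this fit therefore does not show that the listed genes were unchanged. The adjusted limma p of every listed gene was close to 1. At an unadjusted limma p under 0.05 there were 1 gene (Dnmt3a), 1 gene (Smarca4) and 0 genes, against 4.4%, 3.98% and 2.73% of all probe sets. Both genes read higher than in control, and 2.11%, 1.45% and 1.25% of all probe sets were higher at that p.

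The replicate numbers were taken to pair the arrays, which the labels do not state, and limma was also run with that number as a blocking term. It called 0.192% of all probe sets for macroH2A1 shRNA, 0.144% for macroH2A2 shRNA and 0.0037% between both, and again 0 of the 42 genes. Macroh2a1 passed in the blocked fit, with an adjusted limma p of 0.00120 for macroH2A1 shRNA against control. Among the 42 the smallest blocked adjusted limma p was 0.510 (Dnmt3a), 0.406 (Bmi1) and 0.672 (Dnmt3b). At an unadjusted p under 0.05 the blocked fit held 1, 4 and 2 of the genes, or 2.38%, 9.52% and 4.76%, against 8.84%, 8.98% and 6.33% of all probe sets. The share for macroH2A2 shRNA was close to the background and the others were below it.

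Fold changes were small in each comparison. The median log2 fold change over the 42 genes was -0.0027 for macroH2A1 shRNA, -0.0024 for macroH2A2 shRNA and -0.040 between both, against -0.029, -0.031 and -0.0050 over all tested probe sets. Values ran from -0.47 (Cbx3) to 0.34 (Dnmt3a) in the first, from -0.47 (Chd7) to 0.39 (Dnmt3b) in the second and from -0.28 (Chd4) to 0.45 (Dnmt3b) between both. A value of 0.4 or more in size was found for 2, 2 and 1 genes, against 9.27%, 10% and 7.39% of all probe sets. Lower values were found for 22, 22 and 23 genes, against 55.6%, 55.7% and 51.1% of all probe sets. In size the median was 0.11, 0.098 and 0.10, against 0.14, 0.15 and 0.13 over all tested probe sets, which include many dimmer ones. For the remaining 40 genes in each comparison, the unadjusted 95% interval lay within 1 on the log2 scale in either direction, which is a doubling or halving. The exceptions were Cbx3 and Chd7 for macroH2A1 shRNA, Chd7 and Tet1 for macroH2A2 shRNA, and Dnmt3b and Tet3 between both. The intervals do not show that the lines were alike. An interval within 0.5 in either direction was reached by 20, 24 and 21 of the 42.

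**Figure D1:**
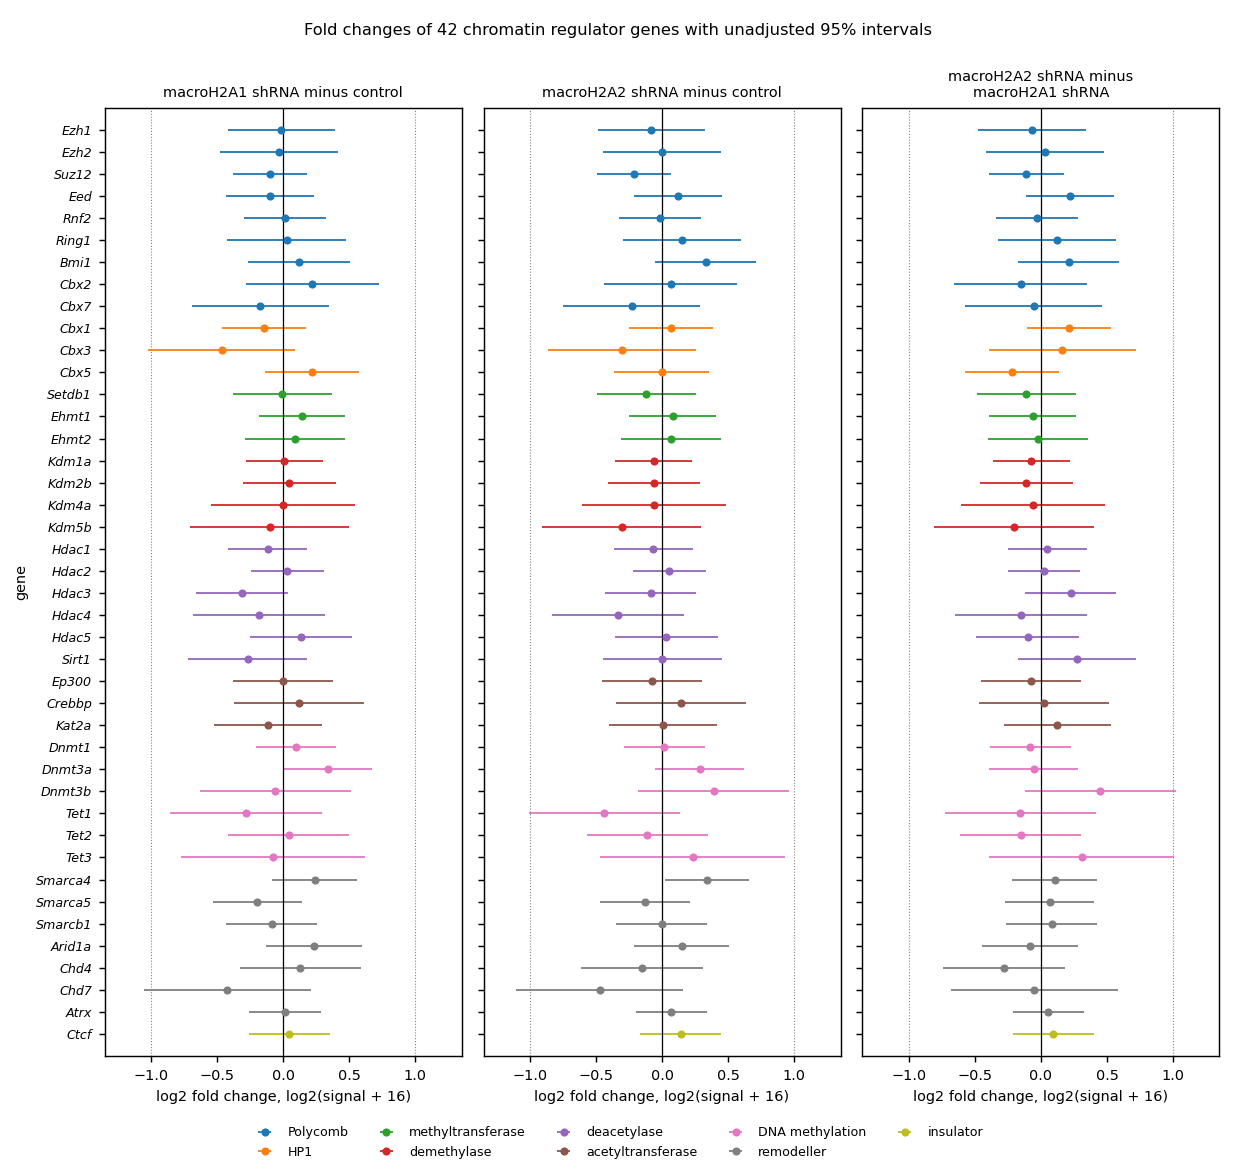
Log2 fold change on the log2(signal + 16) scale (x axis) of each of 42 chromatin regulator genes (y axis, coloured by class) in the 3 comparisons of hairpin lines, with points for the limma estimate and bars for its unadjusted 95% interval. All estimates lie between -0.47 and 0.45, and only Dnmt3a in the first panel and Smarca4 in the second have an interval that leaves out 0.

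The distribution of the fold changes beside that of all tested probe sets is narrow and centred near 0. Groups of 2 arrays did not overlap for 11 of 42 genes in macroH2A1 shRNA cells against control (5 higher, 6 lower), where 27.9% of all probe sets did so, and for 10 in macroH2A2 shRNA cells (4 higher, 6 lower), where 29.2% did. Between both macroH2A shRNA lines it was 10 (7 higher, 3 lower), where 28% did. Of all probe sets 13%, 13% and 13.3% were higher without overlap and 14.9%, 16.2% and 14.6% lower. The share of the genes was 26.2%, 23.8% and 23.8%. The range of the 3 group means was wider than the largest gap between replicates for 7 genes, or 16.7%, against 22.5% of all probe sets. These were Suz12, Eed, Cbx3, Hdac3, Sirt1, Dnmt3a and Smarca4.

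**Figure D2:**
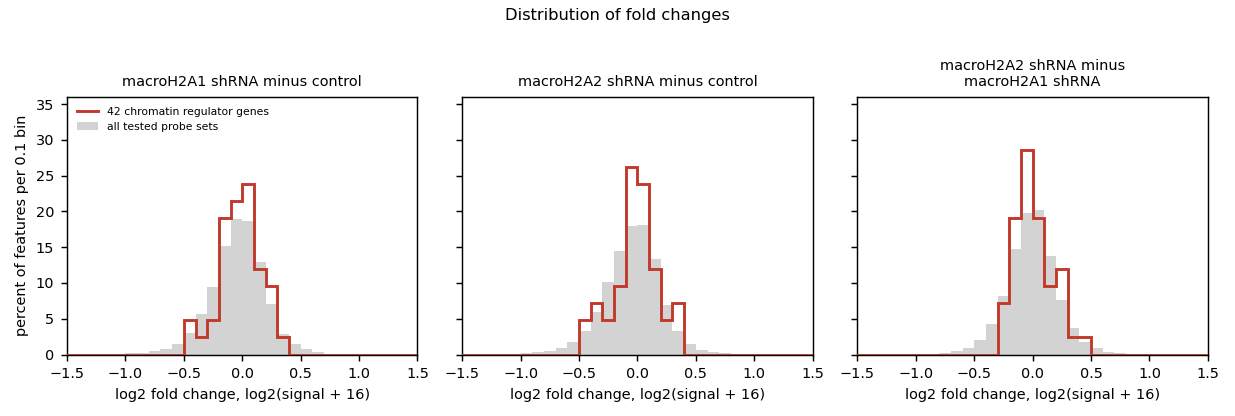
Percent of features per bin of 0.1 (y axis) against the log2 fold change on the log2(signal + 16) scale (x axis) in each comparison. Grey bars are all tested probe sets and the red outline is the 42 chromatin regulator genes, whose values stay between -0.47 and 0.45.

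Among proteins of DNA methylation, Dnmt3a, a methyltransferase that sets new methylation, read higher in both macroH2A shRNA lines. Its signals were 445.0 and 455.2 in macroH2A1 shRNA cells and 460.4 and 406.5 in macroH2A2 shRNA cells, against 363.9 and 341.7 in control cells. The 4 macroH2A shRNA arrays were all above both control arrays. The log2 fold change was 0.34 (SE 0.14) for macroH2A1 shRNA, with 0.28 and 0.40 in replicate sets 1 and 2, and 0.28 (SE 0.14) for macroH2A2 shRNA, with 0.33 and 0.24. Both comparisons use the same control arrays. The unadjusted limma p was 0.0479 and 0.0863, and neither passed after adjustment. The 4 other tested probe sets of Dnmt3a did not share 1 pattern. They ran from -0.099 to 0.34 for macroH2A1 shRNA and from -0.38 to 0.33 for macroH2A2 shRNA, where 3 of 4 were lower. With the mean of all probe sets the values of Dnmt3a were 0.16 and 0.0058.

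Dnmt3b, the related methyltransferase, had its highest mean in the macroH2A2 shRNA line by its brightest probe set. It read 160.1 and 110.0 there, 106.1 and 81.7 in macroH2A1 shRNA cells and 114.5 and 83.1 in control cells. Every line had its replicate 1 array above its replicate 2 array, and the macroH2A2 and control arrays overlapped. The difference of macroH2A2 minus macroH2A1 shRNA was 0.45 (SE 0.25), 0.53 and 0.37 within sets, with an unadjusted limma p of 0.108, or 0.0195 with the block. It ran from 0.21 to 0.69 with 1 array left out. The other tested probe set of Dnmt3b, dimmer, gave 0.050 (SE 0.23) in that comparison. Dnmt1, which copies methylation after replication, had log2 fold changes of 0.097 (SE 0.13) and 0.017 (SE 0.13) against control in the macroH2A1 and macroH2A2 shRNA lines.

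Tet1, which oxidises methylated cytosine, read 77.9 and 63.3 in macroH2A1 shRNA cells and 73.5 and 51.0 in macroH2A2 shRNA cells, against 106.0 and 74.1 in control cells. Each replicate set had control highest, and both macroH2A2 arrays lay below both control arrays, one of them narrowly. For macroH2A2 shRNA the log2 fold change of Tet1 was -0.44 (SE 0.25), -0.45 and -0.43 within sets, with an unadjusted limma p of 0.116, or 0.0274 with the block. With 1 array left out the value of Tet1 ran from -0.66 to -0.22. Tet2 and Tet3, enzymes of the same activity, had values of -0.11 (SE 0.20) and 0.23 (SE 0.30) in that comparison, and Tet3 was dim at 10.7 to 28.3.

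The promoters of the listed genes were compared as sequence, with RefSeq windows of 300 bases (250 before and 50 after the start, GRCm38.p6). Windows were found for 38 of the 42 genes, 50 in all, and 44 (88%) were rich in the dinucleotide CG, defined as a G and C content of at least 50% and a CG count of at least 0.6 of that given by base composition. Of the windows of all genes with a tested probe set 64.7% met that definition, and of all RefSeq windows 33.5%. The listed genes held a median of 29.5 CG per window, against 20 for genes with a tested probe set. The extremes lay at Tet2 with 57 CG and at one start of Dnmt1 with 2. The 250 bases before 3 starts of DNA methyltransferase genes are shown because Dnmt3a had the smallest p against control in macroH2A1 shRNA cells and Dnmt1 holds the window with the fewest CG. Capitals mark CG, which reads the same on both strands.

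The upstream Dnmt3a window lies at chr12:3806730-3806979 on the plus strand with 38 CG, and the downstream one at chr12:3891494-3891743 on the plus strand with 15 CG. The Dnmt1 window shown lies at chr9:20959889-20960138 on the minus strand with 2 CG. Not shown are a Dnmt3a start between these, with 40 CG, and further Dnmt1 starts downstream, with 7 and 26 CG. The Dnmt1 window shown thus does not stand for all its starts.
Dnmt3a upstream start: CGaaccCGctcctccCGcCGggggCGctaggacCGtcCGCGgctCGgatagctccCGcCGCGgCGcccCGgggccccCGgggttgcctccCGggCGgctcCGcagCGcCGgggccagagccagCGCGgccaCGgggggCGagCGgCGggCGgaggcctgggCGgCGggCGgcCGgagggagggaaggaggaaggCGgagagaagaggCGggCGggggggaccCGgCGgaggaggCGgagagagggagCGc
Dnmt3a downstream start: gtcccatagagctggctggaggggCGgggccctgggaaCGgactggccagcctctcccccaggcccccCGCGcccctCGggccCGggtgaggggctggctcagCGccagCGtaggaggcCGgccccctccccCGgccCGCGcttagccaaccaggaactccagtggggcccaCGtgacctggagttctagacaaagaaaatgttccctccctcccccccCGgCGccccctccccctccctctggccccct
Dnmt1 upstream start: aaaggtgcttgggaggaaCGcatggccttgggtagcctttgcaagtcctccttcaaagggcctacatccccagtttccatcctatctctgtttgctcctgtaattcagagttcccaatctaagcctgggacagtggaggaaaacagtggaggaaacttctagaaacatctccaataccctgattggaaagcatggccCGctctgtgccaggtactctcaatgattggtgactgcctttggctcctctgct
The array signals do not say which start was used, and methylation was not measured.

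Of the 7 remodellers, Smarca4, the ATPase of the BAF complex also called BRG1, had the smallest p. It read 947.5 and 1061.5 in macroH2A1 shRNA cells and 1156.6 and 1005.2 in macroH2A2 shRNA cells, against 808.3 and 888.8 in control cells. The control arrays were the 2 lowest of the 6. The log2 fold change was 0.34 (SE 0.14) for macroH2A2 shRNA, with 0.51 and 0.17 within sets and an unadjusted limma p of 0.0392, and 0.24 (SE 0.14) for macroH2A1 shRNA. A second probe set gave 0.14 (SE 0.23) for macroH2A2 shRNA and 0.22 (SE 0.23) for macroH2A1 shRNA. Arid1a, a BAF subunit that contacts DNA, read 797.9 and 716.8 in macroH2A1 shRNA cells, against 703.5 and 585.5 in control cells (0.23, SE 0.16). Smarcb1, a core subunit of the same complex, had -0.085 (SE 0.15) and -0.0037 (SE 0.15) against control in the macroH2A1 and macroH2A2 shRNA lines.

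Chd7, a chromodomain remodeller active at enhancers, was dim throughout. It read 25.5 and 33.7 in macroH2A1 shRNA cells and 19.2 and 38.7 in macroH2A2 shRNA cells, against 46.9 and 42.8 in control cells. All 4 macroH2A shRNA arrays lay below both control arrays, while the macroH2A2 replicates themselves lay far apart. The log2 fold change was -0.42 (SE 0.27) for macroH2A1 shRNA. For macroH2A2 shRNA it was -0.47 (SE 0.27), with -0.84 in set 1 and -0.10 in set 2. The other tested probe set of Chd7 gave -0.28 for macroH2A1 shRNA and -0.16 for macroH2A2 shRNA. Chd4, the ATPase of the NuRD deacetylase complex, had 0.13 (SE 0.20) and -0.15 (SE 0.20), and Smarca5, the ISWI ATPase, -0.20 (SE 0.15) and -0.13 (SE 0.15). Atrx had the smallest standard error of the 42 genes. Its signals were 2676.7 and 2304.4 in macroH2A1 shRNA cells and 2533.3 and 2634.1 in macroH2A2 shRNA cells, against 2513.1 and 2405.4 in control cells, with log2 fold changes of 0.014 (95% interval -0.26 to 0.28) and 0.071 (-0.20 to 0.34). The 6 other tested probe sets of Atrx, all dimmer, read otherwise. For macroH2A1 shRNA 6 of 6 were lower (-0.41 to -0.098), and for macroH2A2 shRNA 4 of 6 were (-0.72 to 0.086), the lowest with a blocked adjusted limma p of 0.122. With the mean of all probe sets Atrx was at -0.20 for macroH2A1 shRNA and -0.27 for macroH2A2 shRNA.

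**Figure D3:**
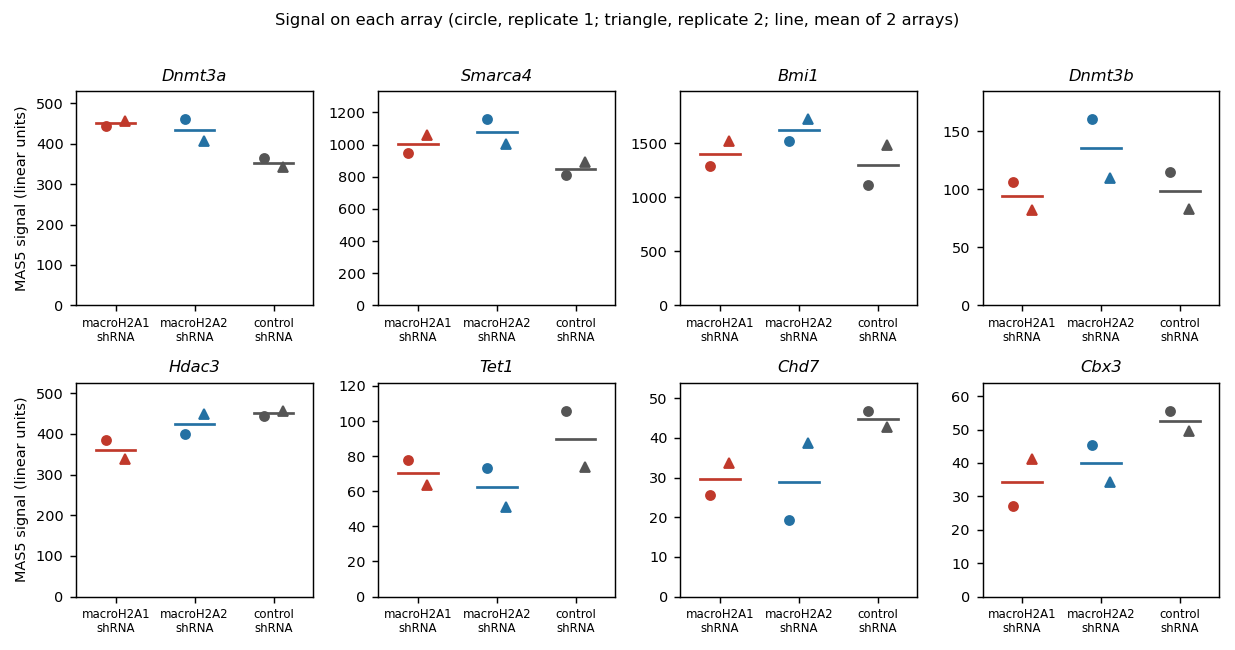
MAS5 signal in linear units (y axes, each starting at 0) on each array for 8 chromatin regulator genes in macroH2A1 shRNA, macroH2A2 shRNA and control cells; circles are replicate 1, triangles replicate 2 and lines the mean of 2 arrays. Dnmt3a and Smarca4 have their control arrays lowest and Chd7 and Cbx3 have them highest, while the macroH2A2 shRNA replicates lie far apart in Chd7.

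Polycomb genes had log2 fold changes of -0.17 to 0.22 for macroH2A1 shRNA and -0.23 to 0.33 for macroH2A2 shRNA. Ezh2, the main catalytic subunit of the methylating complex PRC2, read 1786.3 and 1491.2 in macroH2A1 shRNA cells and 2044.5 and 1362.8 in macroH2A2 shRNA cells, against 1694.4 and 1648.0 in control cells. The macroH2A2 replicates were the highest and the lowest of the 6 arrays. Against control the log2 fold change of Ezh2 was -0.034 (SE 0.19) for macroH2A1 shRNA and -0.0013 (SE 0.19) for macroH2A2 shRNA. In that line 20 of 21 tested replication and mitosis genes were also higher on the replicate 1 array, by a median of 0.37 on the log2 scale, against 5 of 21 in the macroH2A1 shRNA line (-0.067) and 5 of 21 in control (-0.12). Their part in the Ezh2 values was not tested. Ezh1, the second catalytic subunit, had -0.014 (SE 0.18) and -0.082 (SE 0.18).

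Suz12 and Eed, the scaffold and the mark-reading subunit of PRC2, were 2 of the 7 genes whose group range exceeded the replicate gaps. Suz12 read 1383.1 and 1558.8 in macroH2A1 shRNA cells and 1381.5 and 1338.7 in macroH2A2 shRNA cells, against 1522.7 and 1631.0 in control cells. For macroH2A2 shRNA the log2 fold change was -0.21 (SE 0.12, unadjusted limma p 0.122), and the 5 other tested probe sets ran from -0.28 to 0.30, with 4 of 5 lower. Eed read 886.1 and 771.8 in macroH2A2 shRNA cells, against 665.1 and 753.2 in macroH2A1 shRNA cells (0.22, SE 0.14). Its control arrays read 721.5 and 796.8. The other tested probe set of Eed gave 0.026 between both macroH2A shRNA lines. Against control that probe set gave -0.57 for macroH2A1 shRNA and -0.55 for macroH2A2 shRNA. The brightest gave -0.097 (SE 0.14) and 0.12 (SE 0.14) there. In PRC1, the complex that ubiquitinates H2A, Bmi1 had the largest value. It read 1290.5 and 1518.1 in macroH2A1 shRNA cells and 1525.0 and 1721.7 in macroH2A2 shRNA cells, against 1117.1 and 1481.2 in control cells.

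For Bmi1 each replicate 2 array was above the replicate 1 array of its line. For macroH2A2 shRNA against control the log2 fold change was 0.33 (SE 0.17), 0.44 and 0.21 within sets, with an unadjusted limma p of 0.0841, or 0.0171 with the block. With 1 array left out it ran from 0.13 to 0.53, and a second probe set of Bmi1 gave 0.35 (SE 0.17). The ligases Rnf2 and Ring1 had -0.016 (SE 0.13) and 0.15 (SE 0.19) in that comparison. The chromodomain proteins Cbx2 and Cbx7, which target PRC1 to methylated H3, had 0.067 (SE 0.22) and -0.23 (SE 0.22).

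The 3 HP1 genes had values of both signs. Cbx3 (HP1 gamma), measured by a single dim probe set, read 27.0 and 41.3 in macroH2A1 shRNA cells and 45.3 and 34.4 in macroH2A2 shRNA cells, against 55.7 and 49.6 in control cells. The macroH2A shRNA arrays were all below the control arrays. The log2 fold change was -0.47 (SE 0.24, unadjusted limma p 0.0898) for macroH2A1 shRNA and -0.30 (SE 0.24) for macroH2A2 shRNA. Cbx1 (HP1 beta) read 1372.2 and 1232.8 in macroH2A2 shRNA cells, against 1094.1 and 1152.5 in macroH2A1 shRNA cells (0.21, SE 0.14). Its control arrays read 1133.5 and 1360.0. In control cells Cbx5 (HP1 alpha) read 632.5 and 752.3. It read 661.7 and 715.7 in macroH2A2 shRNA cells, against 736.3 and 879.3 in macroH2A1 shRNA cells (-0.22, SE 0.15). The 3 other tested probe sets of Cbx5 were all of the other sign in that comparison (0.12 to 0.50), and no value passed.

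Of the methyltransferases of H3 lysine residues in heterochromatin and silenced genes, Ehmt1 (GLP) had the smallest p for macroH2A1 shRNA. It read 483.5 and 503.0 in macroH2A1 shRNA cells, against 420.8 and 470.8 in control cells (0.14, SE 0.14). Its partner Ehmt2 (G9a) had 0.087 (SE 0.16) and Setdb1 -0.0063 (SE 0.16) in the same comparison. The other tested probe set of Ehmt2 read otherwise, at -0.51 for macroH2A1 shRNA. For macroH2A2 minus macroH2A1 shRNA it gave 0.73, where the brightest gave -0.022 (SE 0.16). With the mean of all probe sets Ehmt2 was at -0.21 and 0.35 in these comparisons.

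Histone demethylases had log2 fold changes between -0.10 and 0.047 for macroH2A1 shRNA, given by Kdm1a (LSD1), Kdm2b, Kdm4a and Kdm5b. For macroH2A2 shRNA 4 of 4 had lower values (-0.31 to -0.060), and likewise 4 of 4 for macroH2A2 against macroH2A1 shRNA (-0.20 to -0.058). Within 1 SE of 0 lay 3 of the 4 for macroH2A2 shRNA against control and 4 of 4 between both lines. Kdm5b, which demethylates H3 at active promoters, varied between replicates. It read 314.6 and 259.1 in macroH2A1 shRNA cells and 193.4 and 311.4 in macroH2A2 shRNA cells, against 370.0 and 255.6 in control cells. The log2 fold change for macroH2A2 shRNA was -0.31 (SE 0.26), but -0.88 within set 1 and 0.27 within set 2. With the block and without macroH2A2 shRNA replicate 2, Kdm5b alone of the 42 passed, at -0.82 with an adjusted limma p of 0.0176. That fit called 2.98% of all probe sets, against 2.38% of the genes, and rests on 1 macroH2A2 array, assumed to vary like the other groups.

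Among deacetylases Hdac3, the catalytic subunit of the NCoR and SMRT complexes, read 385.6 and 337.5 in macroH2A1 shRNA cells and 400.5 and 448.9 in macroH2A2 shRNA cells, against 445.1 and 457.7 in control cells. The macroH2A1 arrays were the lowest of the 6. The log2 fold change was -0.31 (SE 0.15), -0.20 and -0.42 within sets, with an unadjusted limma p of 0.0715, and the difference of macroH2A2 minus macroH2A1 shRNA was 0.22 (SE 0.15). Sirt1, an NAD-dependent deacetylase, read 102.3 and 101.6 in macroH2A2 shRNA cells, against 90.4 and 73.6 in macroH2A1 shRNA cells (0.27, SE 0.19). Its control arrays read 94.0 and 109.9. Against control Sirt1 had -0.27 (SE 0.19) for macroH2A1 shRNA and 0.0033 (SE 0.19) for macroH2A2 shRNA. Hdac1 and Hdac2, which share the NuRD and Sin3 complexes, had -0.12 (SE 0.13) and 0.033 (SE 0.12) for macroH2A1 shRNA and -0.068 (SE 0.13) and 0.055 (SE 0.12) for macroH2A2 shRNA. The class IIa enzymes Hdac4 and Hdac5 had -0.33 (SE 0.22) and 0.033 (SE 0.17) for macroH2A2 shRNA.

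The acetyltransferases Ep300, Crebbp and Kat2a (GCN5) had log2 fold changes between -0.12 and 0.15 against control in both lines. Kat2a read 609.1 and 440.6 in macroH2A2 shRNA cells, against 458.1 and 490.7 in macroH2A1 shRNA cells (0.12, SE 0.18), and these arrays overlapped. Its control arrays read 506.1 and 523.9, above both macroH2A1 arrays. Ctcf, which binds insulators and loop anchors, read 1092.5 and 938.9 in macroH2A2 shRNA cells, against 955.4 and 881.8 in control cells (0.14, SE 0.13).

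**Figure D4:**
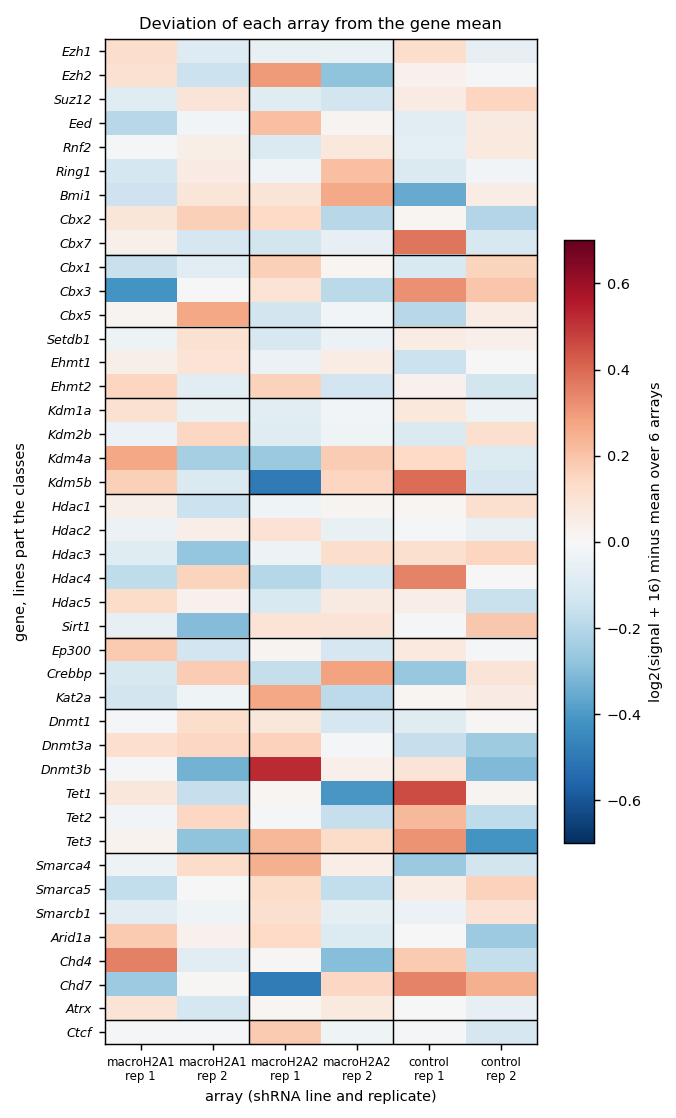
Deviation of log2(signal + 16) on each array from the mean over 6 arrays (colour scale) for 42 chromatin regulator genes (rows, lines part the classes) in the 2 arrays of macroH2A1 shRNA, macroH2A2 shRNA and control cells (columns). Replicate arrays of a line often differ in colour, as for Dnmt3b, Kdm5b and Chd7 in the macroH2A2 shRNA line.

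Other genes of the same complexes and activities were taken from a list of 180, of which 165 were tested. With limma 0 of them passed in each of the 3 comparisons, also with the block, where the smallest adjusted p was 0.204, 0.121 and 0.315. Without the block 5, 8 and 3 had an unadjusted limma p under 0.05, or 3.03%, 4.85% and 1.82%, against 4.4%, 3.98% and 2.73% of all probe sets. The median log2 fold change was 0.031 for macroH2A1 shRNA, 0.034 for macroH2A2 shRNA and 0.0059 between both.

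The smallest p in that list belonged to Gadd45b, a stress-induced protein linked to DNA demethylation. It read 54.2 and 61.9 in macroH2A1 shRNA cells and 42.4 and 35.7 in macroH2A2 shRNA cells, against 122.2 and 71.6 in control cells. The log2 fold change was -0.57 (SE 0.26) for macroH2A1 shRNA and -1.002 (SE 0.26, unadjusted limma p 0.00491) for macroH2A2 shRNA. Its relative Gadd45g read 36.6 and 31.2 in macroH2A1 shRNA cells and 25.6 and 38.4 in macroH2A2 shRNA cells, against 76.6 and 58.9 in control cells (-0.74 and -0.81, SE 0.24 each). Both genes had their control arrays highest. Pcgf5, a PRC1 subunit, read 75.3 and 91.3 in macroH2A1 shRNA cells and 120.1 and 137.0 in macroH2A2 shRNA cells, against 131.8 and 141.3 in control cells. Its macroH2A1 arrays stood below all others (-0.62, SE 0.19, against control). Jarid2, which joins PRC2 to chromatin, read 271.0 and 226.8 in macroH2A2 shRNA cells, against 467.9 and 367.8 in macroH2A1 shRNA cells (-0.71, SE 0.24). Its control arrays lay far apart, at 454.0 and 278.2 (-0.49, SE 0.24, for macroH2A2 shRNA against control). None of these 4 passed after adjustment.

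In the remaining lists no gene passed either. Setd7, a lysine methyltransferase, read 973.9 and 1087.7 in macroH2A2 shRNA cells, against 753.5 and 820.3 in control cells (0.38, SE 0.14), and had 0.26 (SE 0.14) for macroH2A1 shRNA. Naa60, an acetyltransferase, read 263.9 and 282.2 in macroH2A2 shRNA cells, against 206.4 and 175.7 in control cells (0.48, SE 0.16), and had 0.27 (SE 0.16) for macroH2A1 shRNA. Jmjd6, of the demethylase fold, had -0.36 (SE 0.16) and -0.38 (SE 0.16) against control in the macroH2A1 and macroH2A2 shRNA lines.

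Most listed genes were measured by more than 1 probe set. Besides the brightest, 58 further tested probe sets covered 30 of the genes, and 40, 35 and 38 of them shared its sign in the 3 comparisons. In each comparison 1 went against it by more than both standard errors, a set of Cbx5, of Dnmt3a and again of Cbx5, and 0 passed with the block.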

How the data were processed

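The deposited values are signal intensity values on a linear scale, 1 per probe set and array, and the submitters' processing notes name MAS5 as the tool. The sources used here give no software version. The 2% trimmed mean computed from them was 150.0 on all 6 arrays, so a change in total signal would not show. Of 45101 probe sets, 64 controls were left out. Names came from 34945 probe sets with 1 symbol in the platform annotation.

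Tests used log2(signal + 16), which understates changes of dim probe sets, for the 27025 probe sets at or above the 40th percentile of mean signal (10.4). All arrays entered 1 limma fit (limma 3.58.1, R 4.3.3, with a trend of the variance on signal), which estimated 3 means and left 3 degrees of freedom. Tests were two-sided, with Benjamini-Hochberg adjustment at 0.05. Intervals are limma's at 95%, unadjusted. The number of arrays limits the precision.

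The labels share replicate numbers across lines without naming a batch. Replicate 1 minus replicate 2 differences correlated between lines with r of 0.576, 0.372 and 0.415, so the numbers were taken to pair the arrays, and a fit with the replicate block was run. The array median was higher on replicate 1 in each line. It was 20.6 against 15.4 for macroH2A1 shRNA, 19.5 against 16.2 for macroH2A2 shRNA and 24.6 against 15.1 for control. Whether the correlations reflect this shift or paired cultures was not tested. Within-set values are differences between arrays of the same number.

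The genes and lists were chosen with earlier results of these data known. Genes were chosen per comparison and shown with the values of at least the arrays compared. Chosen were genes past the threshold with or without the block and non-overlapping genes with a log2 fold change of 0.4 or more. Non-overlapping genes with the smallest p were added until 6 were reached. The smallest p of each class was also chosen. Some others are shown for their role. Alternatives were other pseudocounts (1, 64), filters (none, 60th percentile), quantile normalization, median centring, the mean of a gene's probe sets and each array left out. Only the fit without the block was run on simulated arrays, with independent noise and changes larger than any seen for the listed genes. That run does not bear on changes as small as theirs. Sequences are RefSeq's (GRCm38.p6).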

Additional observations from a re-analysis of the deposited data

How the results depend on the processing

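The count of the 42 genes past the threshold stayed at 0 in each comparison under all 14 alternatives chosen at the start, the replicate block among them, with a smallest adjusted limma p of 0.510, 0.406 and 0.672 with the block and 0.805, 0.703 and 0.999 over the fits without it. Of 12 alternatives joined to the block after seeing the data, 1 gave a count of 1, for macroH2A2 shRNA without macroH2A2 shRNA replicate 2, a fit that called 2.98% of all probe sets. The count over all probe sets was 52, 39 and 1 with the block, against 0, 0 and 0 without it. With the block and 1 array left out it ran from 26 to 515, 3 to 804 and 3 to 204, and with the block and no filter it was 0, 0 and 0. The replicate block changed no call of a listed gene. The median over the genes was near 0 and its sign has no stable meaning. For macroH2A1 shRNA it was 0.051 with median centring and -0.033 with the mean of all probe sets, and -0.045 to 0.041 with 1 array left out. For macroH2A2 shRNA it was 0.068 and -0.057 under the same settings, and -0.028 to 0.0057 with 1 array left out. Between both lines it was -0.024 with a pseudocount of 64, -0.023 with median centring, 0.0060 with the mean of all probe sets and -0.040 to 0.021 with 1 array left out. The sign turned under at least 1 of the 14 for 75 of 126 values (42 genes in 3 comparisons), and for 3 of the 22 chosen by the naming rule. These counts cannot be compared. Most of the 22 were chosen because their groups of arrays did not overlap, and then leaving out 1 array cannot turn the sign. Kdm5b for macroH2A2 shRNA ran from -0.63 to 0.016 with 1 array left out, Kat2a between both lines from -0.10 to 0.35, and Cbx5 between both lines was 0.085 with the mean of all probe sets. The cause was not tested. With 1 array left out, 16 of the 22 moved by over 1.5 times. Ezh2 for macroH2A2 shRNA ran from -0.29 to 0.29 and Atrx for macroH2A1 shRNA from -0.093 to 0.12.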
